A study of Homo sapiens with 4 samples.

Results

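The unfolded protein response and the integrated stress response were followed in hFOB 1.19 cells through a list of 39 genes, matched by symbol and named for their known roles. The list holds 3 sensors of the endoplasmic reticulum (ER), 6 transcription factors, 11 ER chaperones and co-chaperones, 3 protein disulfide isomerases, 8 genes of ER-associated degradation (ERAD) and of the translocon, and 8 targets or feedback genes of the integrated stress response. All 39 were found among the 19610 gene symbols of the mRNA table, and all 39 are among the 12859 symbols that reached 1 FPKM (fragments per kilobase of transcript, scaled to the fragments mapped in the library) in at least 1 library. hFOB 1.19 is a human fetal osteoblast line immortalized with a temperature-sensitive SV40 large T antigen, which every library shares. The day 0 library, labelled control, came from cells kept at the permissive lower temperature, and the libraries of day 3, day 6 and day 9 came from cells moved to the raised, restrictive temperature, where the line differentiates and mineralizes. The shift in temperature and the time of differentiation therefore cannot be told apart in any comparison with day 0. Each time point has 1 library, so no difference has a replicate check, no p-value is given, and a change is described only by its size.

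Proteins that enter the ER are folded there by chaperones and joined by disulfide bonds, and those that fail are sent back to the cytosol for degradation. When unfolded proteins accumulate, the sensors IRE1 (gene ERN1), PERK (EIF2AK3) and ATF6 signal to the nucleus, IRE1 through the splicing of XBP1 mRNA and PERK through phosphorylation of the translation factor eIF2, which favours translation of ATF4. Other kinases that respond to amino acid shortage, heme shortage or viral RNA phosphorylate the same factor, and the shared branch is called the integrated stress response. Osteoblasts secrete large amounts of collagen, and their secretory pathway is known to need this system.

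The cells carried the osteoblast matrix genes COL1A1, at 777 FPKM on day 0 and 1974, 1587 and 1146 FPKM on days 3, 6 and 9, and SPARC, between 1113 and 1469 FPKM. Of 10 osteoblast markers, 6 reached 1 FPKM in any library, while SP7, BGLAP, IBSP and DMP1, among them the genes of late osteoblasts, stayed under 1 FPKM throughout. The summed FPKM of the 10 markers was 2024, 4332, 3721 and 3013 from day 0 to day 9. Of 11 markers of other cell types, 9 stayed under 1 FPKM in every library, ADIPOQ was listed at 0, CD14 reached 1.07 FPKM on day 0 alone, and KRT18, a keratin that many cultured lines express, gave 394, 216, 182 and 187 FPKM. The summed FPKM of these 11 markers ranged from 183 to 397 and was nearly all KRT18. In bulk RNA, fewer cells of a type and less RNA per cell cannot be told apart. Both the labels and the methods describe RNase R, an enzyme that digests linear RNA, for the libraries of mRNAs alone. The enzyme is usually used to enrich circRNAs, so it is uncertain which libraries received it, and its part in the FPKM was not tested.

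The 39 genes together made up 0.501% of the summed FPKM on day 0 and 0.630%, 0.671% and 0.665% on days 3, 6 and 9. Their median level was 32.2 FPKM on day 0 and between 33.1 and 33.6 FPKM on the later days, beside 14.2 FPKM and 13.4 to 13.5 FPKM over all 12859 genes. Calreticulin (CALR), calnexin (CANX) and HSP90B1 alone held between 44.0% and 46.9% of the FPKM of the 39 genes. At the low end stood DERL3 with 0.639 FPKM on day 0 and ERN1 with 2.5 FPKM on day 3.

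**Figure D1:**
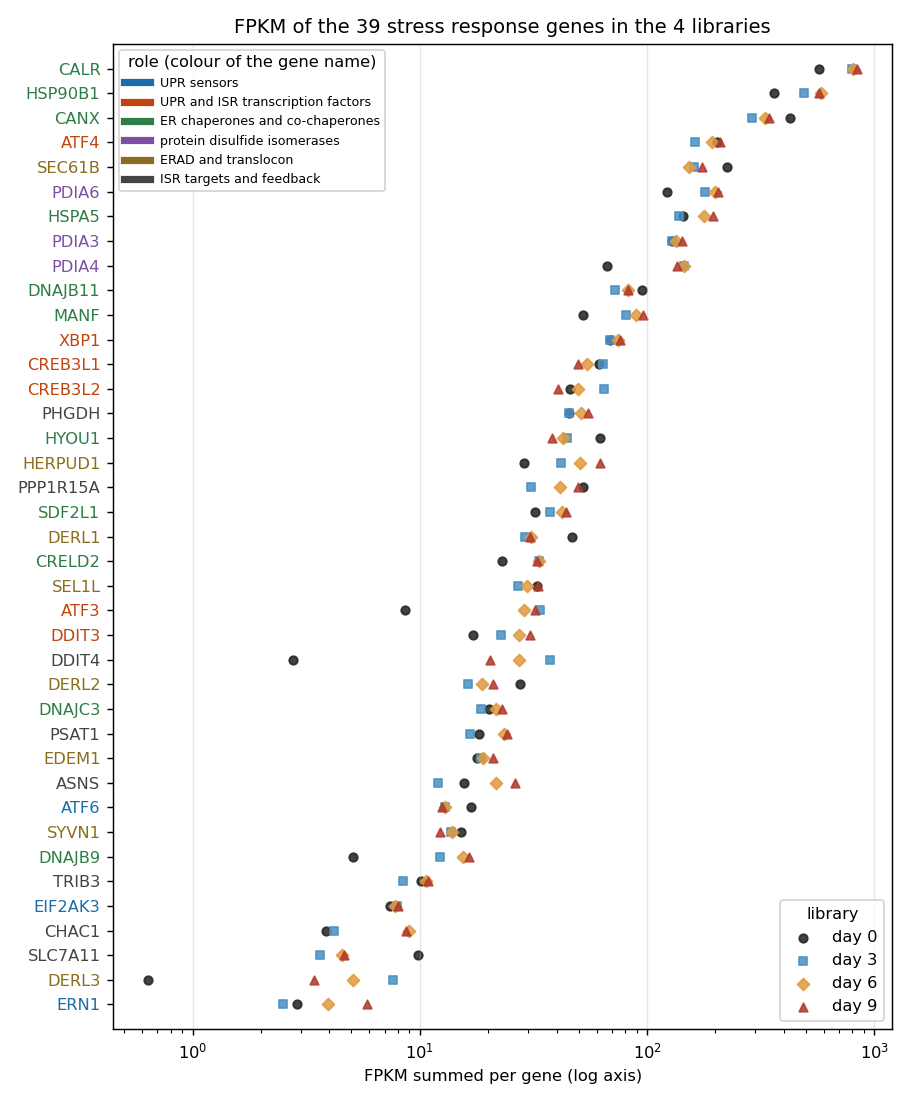
FPKM of the 39 genes on a logarithmic axis, with 1 row per gene, 1 point for each of the 4 libraries and the gene names coloured by role. CALR, CANX and HSP90B1 stand at the top, and DDIT4 and DERL3 show the widest gaps between day 0 and the later days, from 2.76 to 37.6 FPKM and from 0.639 to 7.60 FPKM.

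A gene was counted as higher or lower when its log2 ratio, taken after 1 was added to each FPKM, was at least 1 or at most -1, a 2-fold difference on that scale. On day 3, 5 of the 39 genes were higher than on day 0 (ATF3, DNAJB9, PDIA4, DERL3 and DDIT4) and 1 was lower (SLC7A11). Over all 12859 genes, 8.13% were higher and 5.3% lower. On day 6, CHAC1 joined the 5 higher genes and none was lower, with 9.01% of all genes higher and 6.42% lower. On day 9, the same 5 genes and HERPUD1 were higher and again none was lower, with 9.6% of all genes higher and 6.52% lower. The 5 or 6 higher genes are 12.8% or 15.4% of the list. The 3 comparisons share the day 0 library. In all, 8 of the 39 genes passed the limit on some day, and 31 never did. The share of all genes past it on some day was not computed. On all 3 later days, 5 of the 39 (12.8%) were higher and 0 lower, beside 5.93% and 3.45% of all genes.

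The middle of the list moved little. The median log2 ratio to day 0 of the 39 genes was 0.01, then 0.12 and 0.23 as the days went on, beside -0.08, -0.08 and -0.09 over all genes. The number of the 39 genes with a log2 ratio above 0 was 20, 26 and 27. When each library was rescaled to the same total, 13640 genes reached the minimum, and the median of all genes moved up to 0.12, 0.10 and 0.03, and that of the 39 genes to 0.207, 0.302 and 0.344. The common total lay above the deposited totals of 538072 to 617857 FPKM. The 1 added and the minimum of 1 FPKM therefore also weighed less under this rescaling. The share of these 13640 genes called higher and lower became 12.4% and 3.53% for day 3. For day 6 it became 12.8% and 4.34%, and for day 9 it was 11.9% and 5.48%, while the 39 genes gave 5, 6 and 7 higher, with CHAC1 added on day 9, and SLC7A11 lower on day 3 only. The genes nearest the limit were PDIA4 at 1.12 and PPP1R15A at -0.74 on day 3, CHAC1 at 1.03 and SLC7A11 at -0.97 on day 6, and PDIA4 at 1.02 and CHAC1 at 0.995 on day 9.

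**Figure D2:**
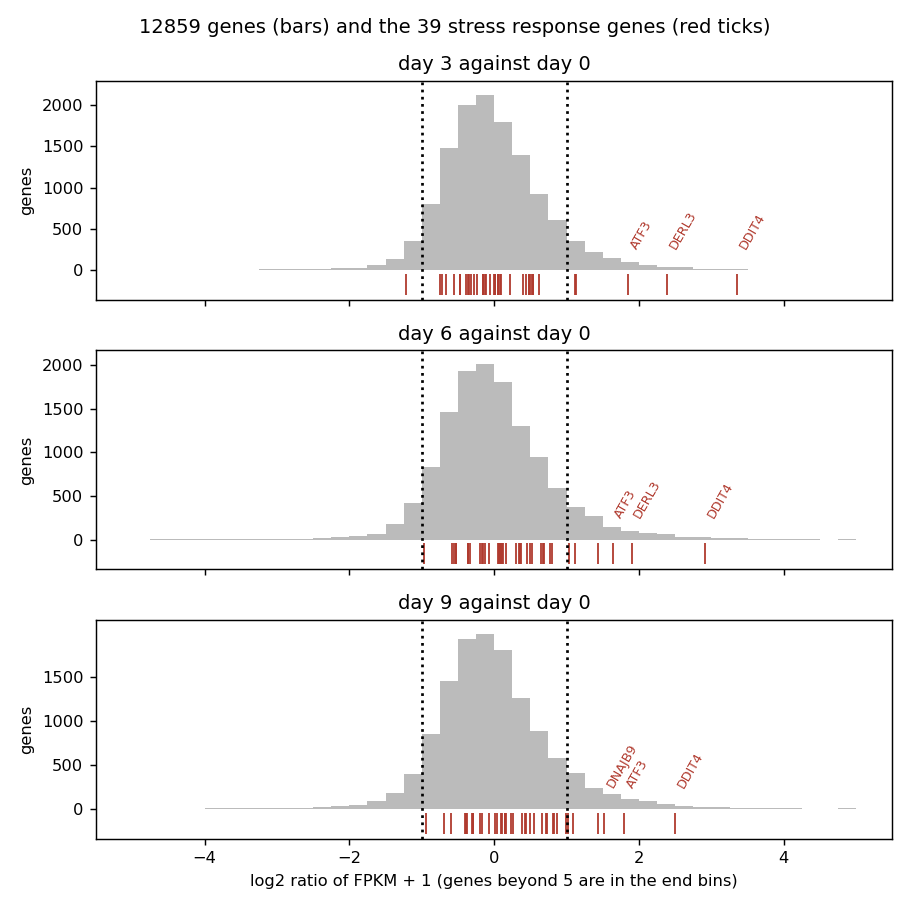
Histograms of the log2 ratio to day 0 of all 12859 genes on days 3, 6 and 9, with the 39 genes as red ticks and the limits of -1 and 1 drawn. Most ticks lie between the limits, and DDIT4 stands farthest to the right, at 3.36, 2.92 and 2.5.

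The sensors stayed within the limit. ERN1, whose product IRE1 is both a kinase and an RNase, was at 2.88, 2.5, 3.96 and 5.87 FPKM in the 4 libraries, in the order of the days. Its day 9 log2 ratio was 0.82, although the plain ratio of FPKM was 2.04, because the 1 added weighs on a gene of this level. EIF2AK3, the ER-resident eIF2 kinase, was nearly level at 7.39, 7.91, 7.78 and 8.02 FPKM. ATF6, a membrane-bound factor that is cut in the Golgi under ER stress, was at 16.9 FPKM on day 0 and at 12.9, 12.9 and 12.5 FPKM later, with log2 ratios of -0.36, -0.37 and -0.40. Of the 3 sensors, ERN1 was thus highest on day 9 and ATF6 on day 0.

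Among the transcription factors, ATF3 stood apart. ATF3 (ENSG00000162772), a stress-induced repressor downstream of ATF4, was at 8.61 FPKM on day 0 and at 33.6, 28.9 and 32.3 FPKM on days 3, 6 and 9, which is 3.91, 3.35 and 3.75 times the day 0 level. Each later library was well above day 0, and the 3 later ones were near each other. ATF4 itself, the factor translated when eIF2 is phosphorylated, was at 202, 162, 193 and 209 FPKM, with log2 ratios of -0.32, -0.07 and 0.04. XBP1 was at 68.5, 69.0, 74.8 and 76.2 FPKM, with log2 ratios of 0.01, 0.12 and 0.15. These levels are of mRNA, and neither the translation of ATF4 nor the cutting of ATF6 was measured.

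DDIT3, which encodes the pro-apoptotic factor CHOP, was at 17.1, 22.9, 27.3 and 30.7 FPKM, and its day 9 log2 ratio of 0.81 remained under the limit. Its leading transcript, ENST00000618206, was at 13.3, 10.4, 17.9 and 22.2 FPKM, so by that transcript alone day 3 was below day 0. Another, ENST00000346473, was at 5.40 FPKM on day 3 and at or near 0 in the other libraries. CREB3L1 and CREB3L2, the factors OASIS and BBF2H7 that act in bone and cartilage secretion, had their highest level on day 3 (63.9 and 64.7 FPKM) and their lowest on day 9 (49.9 and 40.5 FPKM). Their log2 ratios to day 0 lay between -0.29 and 0.49.

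For XBP1, the table separates transcripts. The transcript ENST00000216037, which keeps the short intron that IRE1 removes, held 90.8%, 87.1%, 87.2% and 88.6% of the XBP1 FPKM from day 0 to day 9. The transcript ENST00000344347, annotated without that intron, was at 3.61, 5.28, 7.67 and 5.62 FPKM, or 5.27%, 7.66%, 10.3% and 7.38% of the total. The share of the form without the intron was thus lowest on day 0 and highest on day 6. The forms differ by a short stretch, the reads behind each value are not given, and the size of this difference has no replicate check.

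The ER chaperones did not move as a block. DNAJB9 (ENSG00000128590), also known as ERdj4, a co-chaperone of BiP, was the member of this group past the limit. It was at 5.08 FPKM on day 0 and at 12.3, 15.4 and 16.4 FPKM later, or 2.42, 3.04 and 3.23 times the day 0 level, so that each library was above the one before it. BiP itself, HSPA5, the main ER HSP70 and the usual readout of ER stress, was at 144, 138, 178 and 195 FPKM, with log2 ratios of -0.06, 0.30 and 0.43.

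The abundant lectin chaperones went apart. CALR, a soluble calcium-binding chaperone, was at 572, 798, 804 and 840 FPKM. CANX, its membrane-bound relative, was at 426, 291, 332 and 345 FPKM. HSP90B1, the ER HSP90 known as GRP94, was at 363, 492, 581 and 572 FPKM. CALR and HSP90B1 were above day 0 in all 3 later libraries, with log2 ratios from 0.44 to 0.68, and CANX was below it in all 3, with log2 ratios from -0.55 to -0.30. None of these reached the limit.

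The other chaperones divided in the same way. MANF, a secreted ER stress factor, had log2 ratios of 0.61, 0.76 and 0.86, CRELD2 of 0.51, 0.52 and 0.49, and SDF2L1 of 0.21, 0.38 and 0.43. HYOU1, the large ER HSP70 known as GRP170, had log2 ratios of -0.47, -0.53 and -0.69, and DNAJB11 had -0.39, -0.20 and -0.20. DNAJC3, an inhibitor of PERK, remained between 18.7 and 22.9 FPKM. The median log2 ratio of the 11 chaperones was 0.21, 0.38 and 0.43, and it remained above 0 under both rescalings of the libraries.

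The 3 protein disulfide isomerases lay above day 0 on every later day, under both rescalings as well. PDIA4 (ENSG00000155660), known as ERp72, was at 66.7 FPKM on day 0 and at 146, 146 and 136 FPKM later, or 2.19, 2.19 and 2.04 times the day 0 level. PDIA6 was at 123, 179, 199 and 205 FPKM, with log2 ratios of 0.54, 0.69 and 0.74. PDIA3, which works with CALR and CANX on glycoproteins, was at 129, 129, 134 and 142 FPKM, a log2 ratio of at most 0.14.

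**Figure D3:**
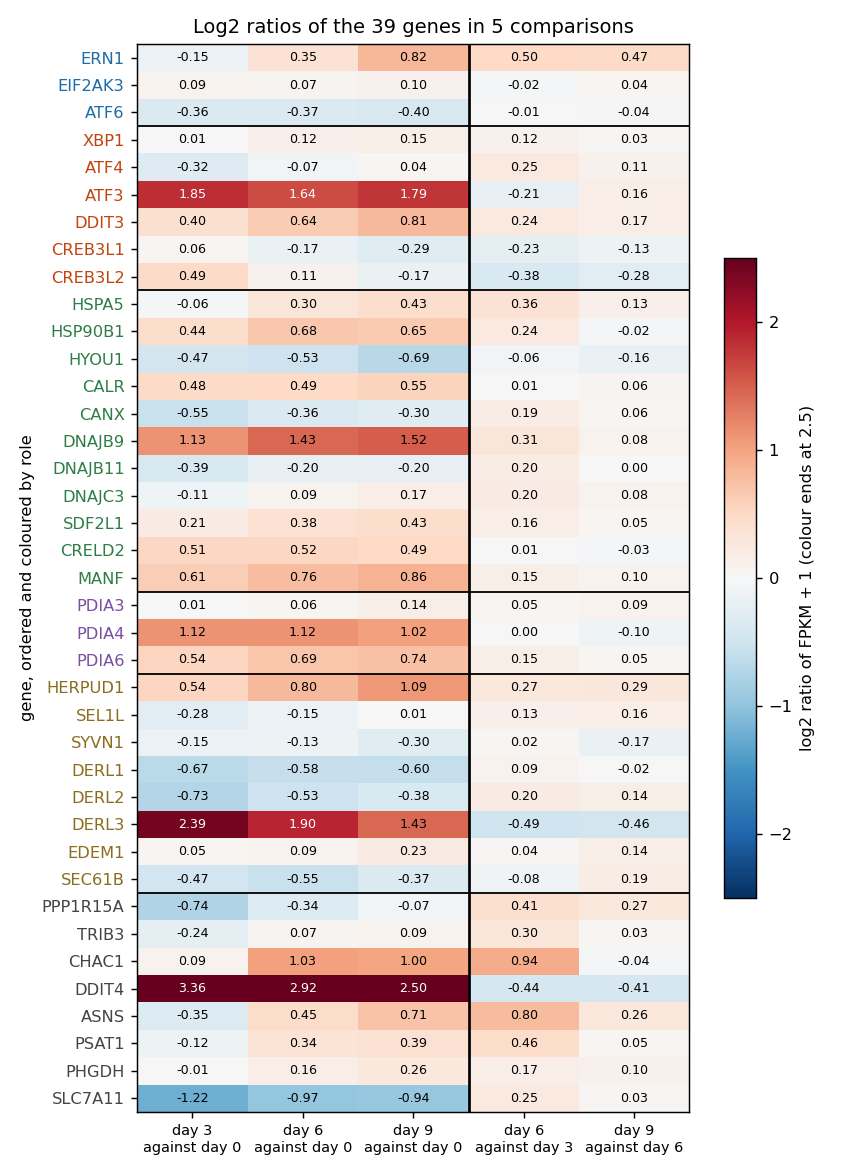
Heat map of the log2 ratio of FPKM for the 39 genes (rows, ordered by role) in 5 comparisons (columns), with the value printed in each cell. DDIT4, DERL3, ATF3, DNAJB9 and PDIA4 are red in all 3 comparisons with day 0, SLC7A11 is blue in them, and the value of CHAC1 on day 9, rounded in its cell, is 0.995 and under the limit.

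Promoters of 5 of the 11 chaperones, of XBP1 and of PDIA6 carry the letters of a known ER stress element. The element ERSE reads CCAAT, 9 bases of any kind, CCACG, and is bound by NF-Y and ATF6. It was searched on both strands in the window from 250 bases before to 50 bases after each RefSeq start (GRCh38.p14), which was at hand for 35 of the 39 genes. PDIA3, DERL1, DERL3 and SLC7A11 had no entry. Of the 35116 promoters of this length, which belong to 27305 genes, 27 hold it (0.0769%). By gene, it is found in 25 of the 27305 (0.0916%) and in 7 of the 35 (20%), XBP1, HSPA5, HSP90B1, CALR, CANX, CRELD2 and PDIA6. The sites of 5 of these genes are shown because they carry the same element beside differing levels. Each is printed on the strand where the element reads as written, with the element in capitals and 20 bases on either side.
HSPA5 (chr9:125241371-125241429, minus strand): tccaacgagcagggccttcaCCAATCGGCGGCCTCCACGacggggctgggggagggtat
HSP90B1 (chr12:103930196-103930254, plus strand): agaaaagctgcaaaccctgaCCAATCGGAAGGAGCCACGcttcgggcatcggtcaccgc
CALR (chr19:12938364-12938422, minus strand): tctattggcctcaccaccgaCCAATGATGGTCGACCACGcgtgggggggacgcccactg
CANX (chr5:179698758-179698816, plus strand): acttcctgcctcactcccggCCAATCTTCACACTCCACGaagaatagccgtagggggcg
PDIA6 (chr2:10812833-10812891, minus strand): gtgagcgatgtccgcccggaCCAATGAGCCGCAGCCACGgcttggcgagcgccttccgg
HSP90B1 has another such site 89 bases before its start. The 7 genes with the element had log2 ratios from -0.55 to 0.54 on day 3 and from -0.30 to 0.74 on day 9, with medians of 0.44 and 0.49, and none of the 7 passed the limit. The element is known from ER stress and the list was chosen by known roles, so its higher share among the 35 genes is no test. A match of letters is a description and does not show that a factor binds.

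In ERAD and the translocon, the genes went both ways. DERL3 (ENSG00000099958), a derlin of the retrotranslocation channel found mainly in secretory cells, was at 0.639 FPKM on day 0 and at 7.60, 5.11 and 3.43 FPKM on days 3, 6 and 9. The plain ratios were 11.9, 7.99 and 5.36, and the log2 ratios with 1 added were 2.39, 1.90 and 1.43. Its level was thus highest on day 3 and lower on each day after. The day 0 level is under 1 FPKM, so the size of the ratio depends on the 1 added. Its relatives DERL1, at 46.6 FPKM on day 0 and 28.9 to 30.8 FPKM later, and DERL2, at 27.6 FPKM and then 16.3 to 20.9 FPKM, were below day 0 in all 3 later libraries without reaching the limit.

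HERPUD1 (ENSG00000051108), an ER membrane protein that brings ubiquitin ligases and derlins together, was at 28.7, 42.0, 50.8 and 62.2 FPKM. Each library was above the one before it, and the limit was passed on day 9 alone, at a log2 ratio of 1.09 after 0.54 and 0.80. The ligase pair of the same complex, SYVN1 and SEL1L, had log2 ratios between -0.30 and 0.01. EDEM1, which marks glycoproteins for disposal, was between 17.9 and 21.1 FPKM, and SEC61B, a subunit of the translocon, was at 225 FPKM on day 0 and between 153 and 174 FPKM later. The median log2 ratio of the 8 genes was -0.21, -0.14 and -0.14, and with the libraries rescaled to the same total it was -0.02, 0.03 and -0.04, so that its sign on day 6 turned.

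The HERPUD1 promoter is shown whole because it holds elements of both branches, and HERPUD1 is 1 of the 8 genes past the limit. The element ERSE-II reads ATTGG, 1 base of any kind, CCACG, and is found in 19 of the 35116 promoters (0.0541%), by gene in 0.0696% of all and in 3 of the 35 (8.57%), HYOU1, SDF2L1 and HERPUD1. The ATF4 element reads TGATG, 1 base of any kind, AA, and is found in 1270 promoters (3.62%), by gene in 4.46% of all and in 5 of the 35 (14.3%), ATF3, CREB3L2, HERPUD1, CHAC1 and ASNS. In capitals are first the ATF4 element, which lies on the opposite strand and is seen here as its complement read backwards, and then ERSE-II.
HERPUD1 (chr16:56931892-56932191, plus strand): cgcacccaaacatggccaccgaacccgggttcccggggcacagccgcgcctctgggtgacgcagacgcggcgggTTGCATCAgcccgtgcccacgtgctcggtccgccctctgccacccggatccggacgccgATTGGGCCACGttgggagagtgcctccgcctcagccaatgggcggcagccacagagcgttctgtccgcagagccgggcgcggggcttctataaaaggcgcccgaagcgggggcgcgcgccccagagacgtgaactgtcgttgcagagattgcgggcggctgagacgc
The ATF4 element begins 176 bases and ERSE-II 117 bases before the start. A 4th motif, the UPRE bound by XBP1 and ATF6 (TGACGTGG), is found in 256 promoters (0.729%), by gene in 0.927% of all, and, of the 35 genes, in HYOU1 alone, where it overlaps an ERSE-II. Of the 6 genes past the limit that have a promoter entry, DNAJB9, PDIA4 and DDIT4 hold none of the 4 motifs in this window, as is true of 21 of the 35 genes. As for ERSE, the shares of these motifs among the 35 genes are no test.

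Among the targets and feedback genes of the integrated stress response, DDIT4 had the widest change of all 39 genes. DDIT4 (ENSG00000168209), or REDD1, an inhibitor of the growth kinase mTORC1 that responds to stress, hypoxia and glucocorticoids, was at 2.76 FPKM on day 0 and at 37.6, 27.4 and 20.3 FPKM on days 3, 6 and 9. These are 13.6, 9.91 and 7.35 times the day 0 level, and the day 3 log2 ratio of 3.36 ranked 25 from the top of the 12859 genes. By day 9 it ranked 154. As for DERL3, the level was highest on day 3 and lower on each day after.

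SLC7A11 (ENSG00000151012), the cystine transporter whose cystine supply feeds glutathione synthesis, was the gene past the limit in the other direction. It was at 9.83 FPKM on day 0 and at 3.64, 4.52 and 4.63 FPKM later, so that the later libraries held 0.37, 0.46 and 0.472 of the day 0 level. All 3 later libraries lay below 0.5 of day 0 in plain FPKM, and with 1 added the log2 ratios were -1.22, -0.97 and -0.94, of which the last 2 fell just short of the limit.

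CHAC1 (ENSG00000128965), which breaks down glutathione, was at 3.85, 4.18, 8.92 and 8.68 FPKM. It was near day 0 on day 3, and on days 6 and 9 it was 2.31 and 2.25 times day 0. The transcripts behind these sums differ. ENST00000617768 was at 3.22, 2.97, 3.32 and 7.88 FPKM, and ENST00000617961 was at 4.12 FPKM on day 6 and at or near 0 in the other libraries, so that it made up 46.2% of the day 6 level. The day 6 call of CHAC1 rests on that transcript, and by the leading transcript alone it was not past the limit on day 6.

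The amino acid synthesis genes of this branch were lowest on day 3. ASNS, asparagine synthetase, was at 15.6, 12.1, 21.7 and 26.2 FPKM. PSAT1 was at 18.3, 16.7, 23.4 and 24.2 FPKM, and PHGDH, which acts in the same serine pathway, at 45.5, 45.3, 51.1 and 54.7 FPKM. As deposited, all 3 were below day 0 on day 3 and above it on day 9, with day 9 log2 ratios of 0.71, 0.39 and 0.26. With the libraries rescaled to the same total, however, PSAT1 and PHGDH were above day 0 on day 3 as well (PHGDH also when rescaled to the same median). PPP1R15A, or GADD34, which directs dephosphorylation of eIF2, was at 52.4, 30.9, 41.3 and 49.9 FPKM, a log2 ratio of -0.74 on day 3 and -0.07 on day 9. TRIB3, a feedback inhibitor of ATF4, remained between 8.45 and 10.9 FPKM.

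The ATF4 element of 3 of these targets is shown because their levels took different courses. The printing is as above, with the element in capitals.
ASNS (chr7:97872449-97872496, minus strand): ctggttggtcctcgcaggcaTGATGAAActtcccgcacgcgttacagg
CHAC1 (chr15:40953242-40953289, minus strand): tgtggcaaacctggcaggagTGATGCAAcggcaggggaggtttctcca
ATF3 (chr1:212565196-212565243, plus strand): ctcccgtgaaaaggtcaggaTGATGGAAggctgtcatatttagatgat
They lie 68, 209 and 191 bases before a RefSeq start of each gene. The search took every RefSeq start of a gene, and whether the leading transcript begins there was not checked. On day 3, the log2 ratio was -0.35 for ASNS, 0.09 for CHAC1 and 1.85 for ATF3, and the 5 genes with the element had a median of 0.49.

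**Figure D4:**
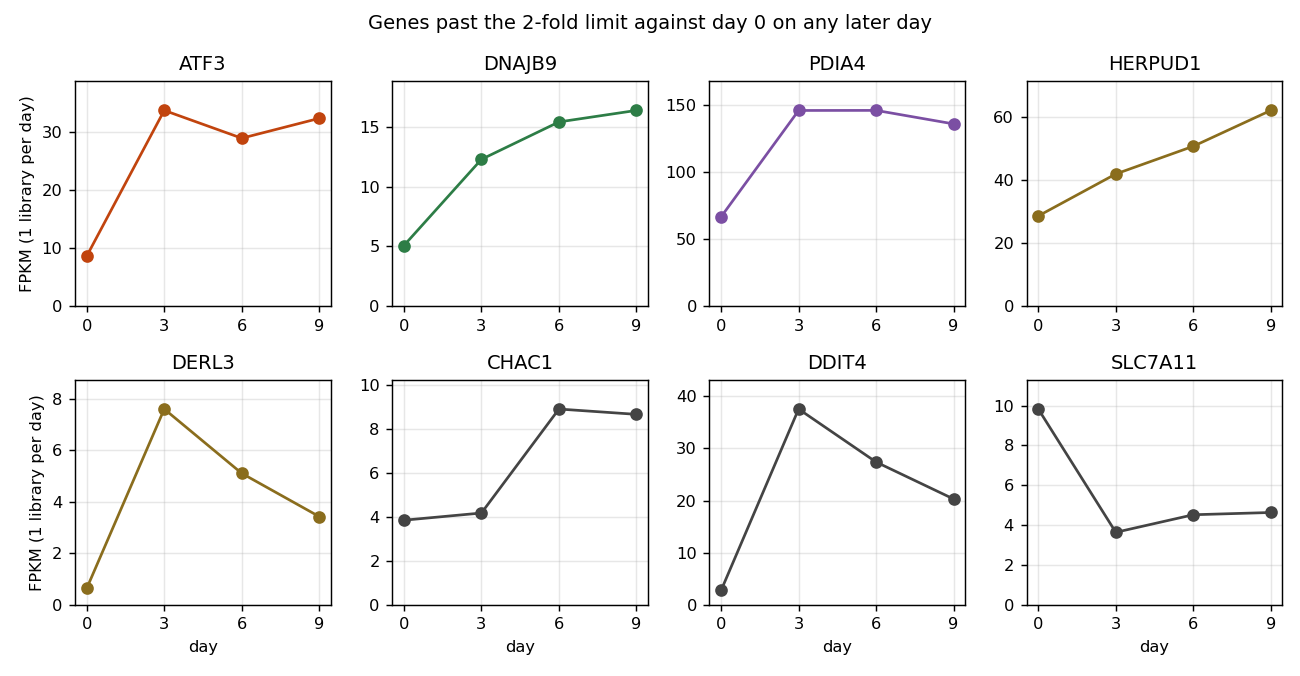
FPKM by day of the 8 genes past the limit against day 0 on some day, 1 point for each library. DDIT4 and DERL3 peak on day 3, DNAJB9 and HERPUD1 are higher on each later day, ATF3 and PDIA4 stay near their day 3 level, CHAC1 steps up on day 6, and SLC7A11 is below day 0 on each later day.

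Between the libraries of the raised temperature, none of the 39 genes passed the limit. From day 3 to day 6, 0 of 39 were higher and 0 lower, beside 0.607% and 0.443% of all genes, and from day 6 to day 9 again 0 and 0, beside 0.381% and 0.163%. Smaller differences leaned upward. On day 6, 30 of the 39 genes (76.9%) were above day 3, beside 49.6% of all genes, and on day 9, 26 of the 39 (66.7%) were above day 6, beside 52.8% of all genes. The median log2 ratio was 0.15 for the first step and 0.05 for the second, beside -0.00 and 0.01 over all genes. With the libraries rescaled to the same total, 27 and 18 of the 39 genes were above the earlier day, beside 45.7% and 40.2% of all genes, so that the lean of the second step turned to 46.2% of the list.

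The 39 genes fall into a few courses. Above day 0 in all 3 later libraries were 18 genes, beside 36.1% of all genes, and below it in all 3 were 10 genes, beside 46%. Rescaled to the same median and to the same total, 20 and 22 genes were above, beside 39.8% and 44.6% of all genes, and 10 and 8 below, beside 42.1% and 36.8%. Among the 18 were XBP1, DDIT3, HSP90B1, CALR, MANF and all 3 disulfide isomerases, and among the 10 were ATF6, HYOU1, CANX, DERL1, DERL2 and SEC61B. Below day 0 on day 3 and above it on day 9 were 9 genes, ERN1, ATF4, HSPA5, DNAJC3, SEL1L, TRIB3, ASNS, PSAT1 and PHGDH, beside 7.52% of all genes. Under the rescaling to the same median and to the same total, this last number was 7 and 6, beside 7.32% and 5.16% of all genes. HSPA5 and PHGDH lost this course under both rescalings and lay above day 0 on all 3 later days. Rescaled to the same total, DNAJC3 and PSAT1 lost it too, and PPP1R15A joined. Higher on each day than on the day before were 10 genes, XBP1, DDIT3, CALR, DNAJB9, SDF2L1, MANF, PDIA3, PDIA6, HERPUD1 and EDEM1, beside 11.9% of all genes, and XBP1, CALR, SDF2L1 and PDIA6 lost this course when rescaled to the same total. The number was then 9, beside 11.4% of all genes, and 12, beside 12.9%, when rescaled to the same median.

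Taken by group, the summed FPKM relative to day 0 was 1.43, 1.5 and 1.52 for the disulfide isomerases and 1.12, 1.24 and 1.27 for the chaperones on days 3, 6 and 9. The targets of the integrated stress response gave a ratio of 1.0, then 1.19 and 1.26, and the transcription factors 1.03, 1.06 and 1.09. ERAD and the translocon gave 0.800, 0.814 and 0.906, and the sensors 0.860, 0.907 and 0.974. These sums follow the abundant genes of each group, such as CALR and SEC61B.

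A further 99 genes of the same pathways, in 5 lists, were examined beside the 39. Of the 96 that reached 1 FPKM, 8 passed the limit upward and 4 downward by day 3. The day 6 library gave 11 and 4, and that of day 9 gave 13 and 3. Of all genes, 8.13%, 9.01% and 9.6% were higher and 5.3%, 6.42% and 6.52% lower. The count of higher genes on day 3 is thus near the share of all genes. Rescaled to the same total, the 96 genes gave 12 higher and 2 lower, then 14 and 3, and then 16 and 2. Of all genes, 12.4%, 12.8% and 11.9% were then higher and 3.53%, 4.34% and 5.48% lower. The rescaled count of higher genes on day 3 is again near the share of all genes. Their median log2 ratio as deposited was -0.20, -0.07 and 0.02, beside -0.08, -0.08 and -0.09 over all genes. On day 9, 81 of the 96 were above day 6, beside 52.8% of all genes, and 71 were when rescaled to the same total, beside 40.2%. As deposited, 7 of the 99 genes (7.07%) were higher on all 3 later days and 2 (2.02%) lower, near the 5.93% and 3.45% of all genes.

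Among 31 other ATF4 targets, 6 were higher on each later day, and 3, 2 and 1 were lower, against the shares of all genes just given. Under both rescalings SLC3A2 was no longer past the limit, and rescaled to the same total WARS was not either, so that SLC7A5 alone remained lower. GDF15, a stress cytokine, was at 11.4, 360, 578 and 767 FPKM, a log2 ratio of 4.87, 5.55 and 5.96. NUPR1, a stress-induced chromatin protein, was at 1.58, 5.91, 12.2 and 21.6 FPKM, and SLC1A4, a neutral amino acid transporter, at 8.28, 20.5, 24.5 and 32.1 FPKM. These 3 genes were highest on day 9, while TXNIP, an inhibitor of thioredoxin and glucose uptake, was at 28.3, 358, 323 and 230 FPKM and highest on day 3, as DDIT4 was. SESN2 and VLDLR were also higher on every later day. Whether ATF4 or another factor lies behind any of these levels was not tested. In the other direction, and chosen after their values were seen, SLC7A5 was at 83.1, 24.5, 25.7 and 25.9 FPKM and SLC3A2 at 93.5, 44.1, 45.3 and 53.8 FPKM. SLC3A2 encodes the heavy chain that pairs with the light chains of SLC7A5 and SLC7A11. The last of these is the transporter described above, so that both light chains and the heavy chain were below day 0 in every later library.

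Among 17 other signalling genes, BBC3, which encodes the pro-apoptotic PUMA and is also a p53 target, was at 4.48, 37.0, 29.9 and 29.5 FPKM. ATF5, a factor translated like ATF4, was at 23.1, 8.95, 9.31 and 10.9 FPKM, with log2 ratios of -1.28, -1.23 and -1.02. Under both rescalings ATF5 remained past the limit on days 3 and 6 but not on day 9. MBTPS2, chosen after its values were seen, encodes a protease that cuts ATF6, and was at 13.8, 7.43, 5.72 and 5.85 FPKM. It passed the limit on days 6 and 9, at log2 ratios of -1.14 and -1.11. CEBPB, at 21.9, 39.7, 58.2 and 71.6 FPKM, and BCL2L11, at 2.11, 4.85, 6.08 and 8.01 FPKM, passed it upward on the same days. Rescaled to the same total, both did on day 3 as well. Of the 17 genes, 1 was higher and 1 lower on day 3, beside 8.13% and 5.3% of all genes. On day 6, 3 were higher and 2 lower, beside 9.01% and 6.42%, and on day 9 again 3 and 2, beside 9.6% and 6.52%. The median of the 17 genes was -0.01, -0.06 and 0.12.

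Among 15 other folding and oxidation genes, none passed the limit on day 3 (P4HB and ERO1B did when rescaled to the same total), 2 did on day 6 and 3 by day 9, all higher. Of all genes, 8.13%, 9.01% and 9.6% were higher. SERP1 joined on day 9 under both rescalings, and DNAJC1 when rescaled to the same total. P4HB, a disulfide isomerase that is also a subunit of collagen prolyl hydroxylase, was at 312, 590, 633 and 689 FPKM. ERO1A, which reoxidizes the isomerases, was at 32.7, 43.6, 56.6 and 72.3 FPKM, and its relative ERO1B at 2.02, 4.71, 5.16 and 5.15 FPKM. Both were also above day 0 in every later library. Of 16 other ERAD genes, EDEM2 alone passed the limit, on days 3 and 9, at 6.26, 14.1, 13.0 and 16.6 FPKM, beside the same shares of all genes. Under both rescalings EDEM2 passed it on day 6 as well, and rescaled to the same total EDEM3 did on days 6 and 9. Of 17 other genes of the translocon and of ER targeting, none passed it on any day. The medians of the latter were -0.33, -0.29 and -0.21, and they remained below 0 under both rescalings.

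**Figure D5:**
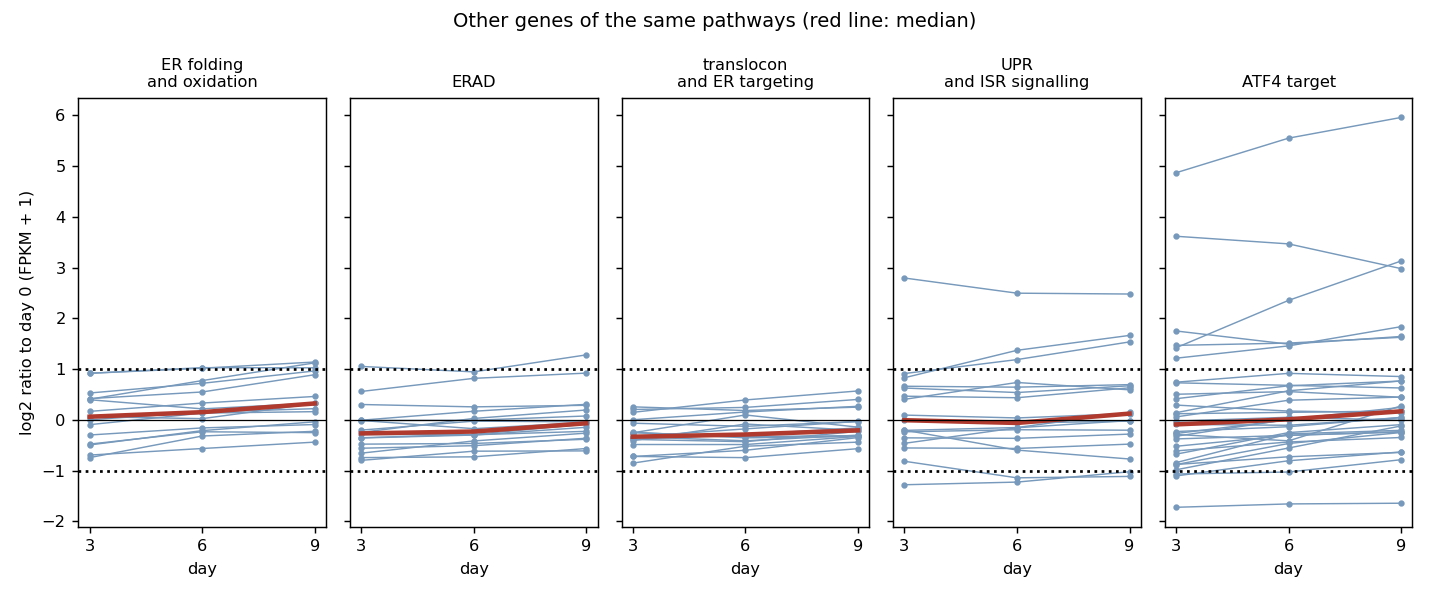
Log2 ratio of FPKM to day 0 on days 3, 6 and 9 for the other genes of the pathway, with 1 panel for each of 5 lists, 1 line for each gene and the median in red. The translocon list lies below 0 at its median, the folding list reaches a median of 0.32 on day 9, and GDF15 is the line at the top of the ATF4 target panel, at 5.96 on day 9.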

How the data were processed

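Total RNA of hFOB 1.19 cells was sequenced after removal of ribosomal RNA, with 1 library per time point. The authors deposited FPKM per transcript for mRNAs. Their methods name a Bowtie index and TopHat, and the submitters' processing notes name Bowtie 0.12.2 and the mouse build mm8, although the transcript identifiers are human. The program behind the FPKM and the build of the human annotation are not given in the sources used here. FPKM does not hold the read number behind a value, so depth and counting error are unknown.

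FPKM were summed over the transcripts of a gene symbol (79798 transcripts, 19610 symbols, of which 17 cover more than 1 gene ID and 0 are among the 39). A log2 ratio was taken after 1 was added, and 1 FPKM in any library was required. The calculation was tested on simulated data with known changes, a check of the code and not of the error between libraries. All 39 genes could be named, those past the limit, the sensors, XBP1, ATF4 and the 3 most abundant with every value. Of the other pathway genes, up to 4 per list that were past the limit, and the same way, on each of the 3 later days were named by rule, and any other pathway gene named was chosen after its values were seen. The gene lists were chosen with earlier results of these data known. 3 of the 99 pathway genes were found under another symbol. All per-sample columns were mapped (0 were not). Tables of lncRNAs and circRNAs hold none of these genes by symbol and were not used, nor were the authors' comparison tables, which hold fold changes with p-values and q-values. Alternatives covered the pseudocount, the minimum, the limit, the transcript level and 2 rescalings. Python 3.11.15, numpy 2.4.6, pandas 2.3.3 and matplotlib 3.10.9 were used.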

Additional observations from a re-analysis of the deposited data

How the results depend on the processing

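No paired analysis was possible because the study has 1 library for each day, and for the same reason no library could be left out. Of 8 alternatives, 4 (the minimum and the limit) cannot change the log2 ratio of a gene. Under the other 4, 305 of 468 values of single genes stayed within 0.1 of the log2 ratio given above, 163 moved by more, and 0 of those past the limit changed sign. No FPKM minimum, a minimum of 5 FPKM and the rescaling to the same median left each count of higher and lower genes within 1.5 times, with 7 in place of 6 genes higher on day 9 under the last (CHAC1 added). Under it 10.3% of all genes were higher on day 9. With 0.1 in place of 1 added, 1 gene was lower on day 6 and 1 on day 9 (SLC7A11), beside 8.73% and 9.49% of all genes. For day 6 against day 3, 1 was higher (CHAC1), beside 1.4%, and 8 were higher on day 9, beside 12.8%. By the leading transcript alone, 1 gene was higher on day 9 against day 6 (CHAC1), beside 0.643% of all genes. Rescaled to the same total, the median log2 ratio of the 39 genes was 0.207, 0.302 and 0.344 on days 3, 6 and 9. When the limit was eased to 1.5-fold, day 3 had 6 of the 39 genes above it (15.4%), beside 17.4% of all genes. Lower on that day were 4, beside 18.5%. The day 3 share of higher genes in the list was thus below that of all genes at this limit. On day 6, 11 were higher and 1 lower, beside 18.0% and 20.1%. On day 9, 13 were higher and 3 lower, beside 18.1% and 20.4%. For day 6 against day 3, 2 were higher, beside 2.32%. With a 4-fold limit, 2 genes were higher (DERL3, DDIT4) and 0 lower on day 3, and 1 was higher on each of day 6 and day 9 (DDIT4). Of all genes, 1.66% were then higher and 0.77% lower on day 3, and 2.01% and 2.34% were higher on days 6 and 9. The counts under other limits follow from the construction of each limit. A change of a gene at a few FPKM, such as DERL3 on day 0, is the least certain, since the reads behind it are not given.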

Other observations

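The aminoacyl-tRNA synthetases, which load transfer RNAs with amino acids and are known targets of ATF4, were set apart after their values were seen. Of 12 such genes in the list of other ATF4 targets, the median log2 ratio to day 0 was -0.42, -0.26 and -0.02 in the 3 later libraries, and 2, 4 and 6 of the 12 were above day 0. WARS, at 63.7 FPKM on day 0 and 29.1 FPKM on day 3, was the 1 gene of the 12 past the limit, with a day 3 log2 ratio of -1.10, and it was not past it when rescaled to the same total. HARS, KARS and VARS, synthetases that are not among the 12, also passed the limit downward on day 3. AARS was at 48.7, 53.8, 73.0 and 83.7 FPKM. On day 6, 11 of the 12 genes were above day 3, beside 49.6% of all genes, and on day 9 all 12 were above day 6, beside 52.8%. Both counts were the same under both rescalings. ASNS, PSAT1 and PHGDH had the same order of days 3, 6 and 9, except that PSAT1 on day 9 was not above day 6 when rescaled to the same total. No test was made, since each day has 1 library.

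SYVN1, DERL2, DERL3 and CHAC1 were the 4 of the 39 genes whose leading transcript differed between libraries, while 35 kept the same one. For DERL3, ENST00000406855 was listed at 0 on day 0 and at 3.79, 2.45 and 1.25 FPKM later, and ENST00000404056 was at 0.519, 2.31, 1.68 and 1.53 FPKM. Both transcripts were thus highest on day 3.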
